A study of Mus musculus with 9 samples.

Results

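The genes described here encode the subunits of the oxidative phosphorylation (OXPHOS) system of mitochondria, split by the genome that encodes them. Members were chosen by symbol: names starting with Nduf and the letter a, b, c, s or v (complex I), Sdha to Sdhd (complex II), names starting with Uqcr, and Cyc1 (complex III), the Cox4i, Cox5, Cox6, Cox7 and Cox8 families (complex IV), names starting with Atp5 (complex V), and the mitochondrial genes with the prefixes mt-Nd, mt-Co, mt-Cytb and mt-Atp. The pattern matched 104 of the 11802 listed genes, 7 with -ps in their names (the marker of a pseudogene) were left out, and 97 members remained. Because this choice goes by name, 3 members that GENCODE M21 annotates as processed pseudogenes stayed in: Ndufb4c and Ndufs6b under complex I and Cox6c2 under complex IV. Of these, 84 are nuclear: 37 belong to complex I, 4 to complex II, 9 to complex III, 12 to complex IV and 16 to complex V, and 6 (Ndufaf1, Ndufaf2, Ndufaf3, Ndufaf4, Ndufaf7 and Ndufaf8) are assembly factors of complex I that the pattern also takes in. The other 13 lie on the mitochondrial genome, 7 for complex I, 1 for complex III, 3 for complex IV and 2 for complex V.

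The samples were ribosome captures from mouse white adipose tissue, and the series compared endothelium that has Mfn2 with endothelium that lacks it. The product of Mfn2, mitofusin 2, sits in the outer membrane and fuses mitochondria. The WT group (4 libraries, WT1 to WT4) had the genotype Pdgfb-iCreERT2:Rpl22HA, and the KO group (5 libraries, KO1 to KO5) had the genotype Pdgfb-iCreERT2:Mfn2ideltaEC:Rpl22HA. Both groups therefore carried the same inducible Cre under the endothelial Pdgfb driver and the same HA-tagged ribosomal protein Rpl22, which is switched on by Cre so that an antibody to HA pulls down ribosomes from the targeted cells. The sources used here do not give the age and sex of the mice, the induction of Cre or the deleted exons. Replicates are labelled biological, but no animal is named, and the p-values thus reflect only how far these libraries spread.

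Mfn2 itself did not separate the labels: it had 20.2, 55.8, 30.5 and 38.01 CPM in WT1 to WT4 and 129.6, 35.4, 56.98, 65.6 and 46.04 CPM in KO1 to KO5, and its change relative to the library median was −0.16 (SE 0.365, adjusted p = 0.898). The groups overlapped, and WT and KO below mean the libraries labelled so. Every direction below rests on these labels.

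Complexes I to IV pass electrons from NADH and succinate to oxygen, and complexes I, III and IV pump protons across the inner mitochondrial membrane. Complex V, the ATP synthase, uses that proton gradient to make ATP. Every complex except complex II joins subunits of both genomes: nuclear mRNAs are translated on cytosolic ribosomes and their proteins imported, while the mitochondrial mRNAs are translated inside the organelle on mitochondrial ribosomes, which do not contain Rpl22. Endothelial cells are known to draw much of their ATP from glycolysis and to keep a modest mitochondrial content. Whether the mitochondrial RNA in these captures was bound to tagged ribosomes was not tested.

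The libraries held between 1034753 (WT4) and 3829356 (KO5) reads in listed genes. The deposited values are CPM (reads of a gene, scaled to the total of its library), and a change is the difference in mean log2(CPM + 1), KO minus WT, which understates the change of low genes. In these values the median gene was 1.10 higher in KO, and results are therefore given a second time on a relative scale, in which the median log2 value of a library was taken off all its genes; there the median change of all genes was 0.12. The 2 mitochondrial rRNAs took up, as a percentage of the CPM of listed genes, 64.8, 47.5, 48.3 and 13.9 in WT1 to WT4 and 18.1, 25.2, 19.8, 15.1 and 12.8 in KO1 to KO5, with WT1 to WT3 above all KO libraries and WT4 among them. A gene was called at a limma adjusted p under 0.05 over all 11802 genes. The defining markers of the labelled cell type were present: all 16 endothelial markers were measured, their summed level ran from 1107 to 3870.5 CPM in WT and from 3338 to 7702 CPM in KO, and 14 were called higher in the deposited CPM, where 32% of all genes were, and 0 relative to the library median. Relative changes of all 16 endothelial markers were above 0 (57.9% of all genes), with a median of 0.39. Of the 16, 2 were higher and 0 lower at an unadjusted p under 0.05 in limma (5.99% and 5.69% of all genes). Markers of other cells were present too. Adipocyte markers (12 of 12 measured) summed to 3463 to 7342 CPM in WT and 9141 to 21093 CPM in KO, with every KO sum above every WT sum. These sums rest largely on 1 marker with a mean of 8442 CPM, where the median marker had 68.3 CPM. Of the 12, 3 were called higher in the deposited CPM and 0 relative to the library median. Relative changes were above 0 for 4 and below 0 for 8. At an unadjusted p under 0.05 (limma), 0 were higher and 3 lower (5.99% and 5.69% of all genes). Fibroblast markers (6 of 8) summed to 2208 to 7142 CPM in WT and 1373 to 10112 CPM in KO.

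Promoters of nuclear members are shown because nuclear OXPHOS genes, unlike the mitochondrial ones, are known to be driven by nuclear factors such as NRF1. RefSeq promoters (GRCm38.p6, from 250 bases before to 50 after each gene's start) matched 67 of the 84 nuclear members, with 72 promoters. The NRF1 sequence (GCGCA, any base, then GCGC), searched on both strands, was in 26.4% of the 72 member promoters and in 4.60% of all 32851 promoters of the same length. The YY1 sequence (AAGATGG followed by CGGC) was in 6.94% and 0.633%, the ETS-type GABPA sequence CCGGAAGT in 6.94% and 3.89%, and the sequence of the estrogen-related receptor ERRA (TCAAGG followed by TCA) in 2.78% and 0.423%; no matches to different motifs overlapped. A match is a description of letters and not a measured binding site. Windows of 80 bases are given for 1 member each of complexes I, II, IV and V, read 5′ to 3′ on the gene's strand (minus for all 4), with the NRF1 letters in capitals: Ndufs5 at chr4:123718240-123718319, Sdha at chr13:74350294-74350373, Cox6a1 at chr5:115349076-115349155 and Atp5h at chr11:115420016-115420095.
Ndufs5: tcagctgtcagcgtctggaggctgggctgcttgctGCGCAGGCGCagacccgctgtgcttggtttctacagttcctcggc
Sdha: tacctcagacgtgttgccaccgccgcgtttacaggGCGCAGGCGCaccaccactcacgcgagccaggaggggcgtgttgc
Cox6a1: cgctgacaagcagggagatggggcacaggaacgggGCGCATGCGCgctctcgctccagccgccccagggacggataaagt
Atp5h: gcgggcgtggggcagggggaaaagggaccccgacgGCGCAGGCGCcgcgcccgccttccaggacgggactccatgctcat
The median relative change was 0.22 over the 18 members with an NRF1 match and 0.17 over the 49 without one. Calls of higher levels in the deposited CPM, made for 32% of all genes, numbered 8 of 18 and 16 of 49; the difference was not tested.

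Several mitochondrial genes have copies in the nuclear genome that are almost letter for letter the same, and this bears on how their reads were assigned. A block on chromosome 1 (GRCm38, GENCODE M21) holds the pseudogenes Gm28439, Gm10222, Gm28438, Gm28437, Gm10925, Gm28661 and Gm29216, which match mt-Nd4, mt-Nd4l, mt-Nd3, mt-Co3, mt-Atp6, mt-Co2 and mt-Co1. For mt-Co1 (chrM:5328-6872, plus strand) and Gm29216 the 483 aligned bases differ at 1. The stretch around it is printed from the GENCODE M21 transcripts, bases 1063 to 1123 of mt-Co1 and 10 to 70 of Gm29216, with the differing base in capitals.
mt-Co1: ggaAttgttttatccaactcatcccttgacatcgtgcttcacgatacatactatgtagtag
Gm29216: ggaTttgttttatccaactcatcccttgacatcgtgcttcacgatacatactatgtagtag
The deposited table lists both genes of each pair, at similar levels in most libraries or, for Gm28439 and Gm29216, which match only a stretch of mt-Nd4 and mt-Co1, with the copy lower in every library. The mt-Nd4l copy Gm10222 had 87.8, 80.7, 119 and 382 CPM in WT1 to WT4 and 98.05, 71.7, 115, 84.9 and 207 CPM in KO1 to KO5, against 89.5, 82.3, 118 and 392 CPM in WT1 to WT4 and 99.3, 72.2, 118, 83.2 and 209 CPM in KO1 to KO5 for mt-Nd4l itself. Which locus these reads came from cannot be told apart, so the levels of those 7 mitochondrial members are uncertain. The other 6 (mt-Nd1, mt-Nd2, mt-Nd5, mt-Nd6, mt-Cytb and mt-Atp8) had no match of at least 100 bases at 98% identity among the annotated transcripts.

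Set against the mitochondrial members of the same library, nuclear members lay higher in KO than in WT. The summed CPM of the nuclear members was 1315, 2315, 1637 and 3744 in WT1 to WT4 and 3491, 3349, 5296, 5255 and 6442 in KO1 to KO5. WT4 lay above KO1 and KO2, so the groups overlapped. The summed CPM of the mitochondrial members was 2915, 2812, 4323 and 15204 in WT1 to WT4 and 3932, 3417, 4443, 3305 and 6917 in KO1 to KO5, where WT4 stood far above the other 8 libraries and the groups overlapped.

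The ratio of the nuclear to the mitochondrial sum does not depend on how a library is scaled. It was 0.451, 0.823, 0.379 and 0.246 in WT1 to WT4 and 0.888, 0.9800, 1.19, 1.59 and 0.931 in KO1 to KO5, so all 5 KO ratios lay above all 4 WT ratios. The highest WT ratio was 0.823 and the lowest KO ratio 0.888, a narrow gap. The mean log2 level of nuclear minus mitochondrial members was −4.04, −3.13, −4.14 and −5.05 in WT1 to WT4 and −2.85, −2.40, −2.14, −1.81 and −2.25 in KO1 to KO5, again without overlap. Its group values were −4.09 ± 0.785 (SD, n = 4) in WT and −2.29 ± 0.380 (SD, n = 5) in KO, a difference of 1.80, and 1.48 without WT4. These are scores over chosen members and were not tested. The median relative change was 0.20 for nuclear members, −1.65 for mitochondrial members and 0.12 for all genes. On this relative scale nuclear members thus moved much as all genes did, and the difference lay mostly in the mitochondrial members. In the deposited CPM the mean log2 level changed by 1.22 for nuclear and −0.58 for mitochondrial members. Without WT4 these changes were 1.44 and −0.038, so the genome in which the difference lay depends on the scale. Within single complexes the ratio of nuclear to mitochondrial CPM was higher on average in KO but the groups overlapped for each of complexes I, III, IV and V, from 0.152 to 0.391 in WT and 0.327 to 0.723 in KO for complex I.

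**Figure D1:**
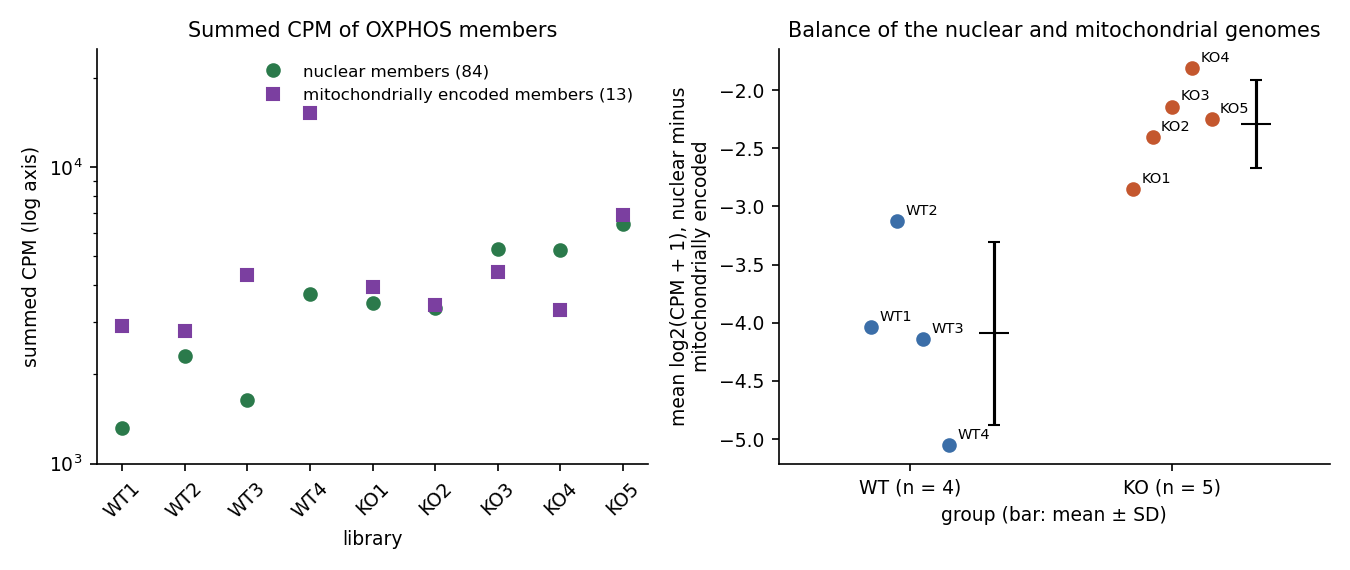
Left, the summed CPM (log axis) of the 84 nuclear and 13 mitochondrially encoded OXPHOS members in each of the 9 libraries. Right, the mean log2(CPM + 1) of the nuclear minus that of the mitochondrially encoded members, with 1 point per library and the mean ± SD per group; the 5 KO points lie between −2.85 and −1.81 and the 4 WT points between −5.05 and −3.13.

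**Figure D2:**
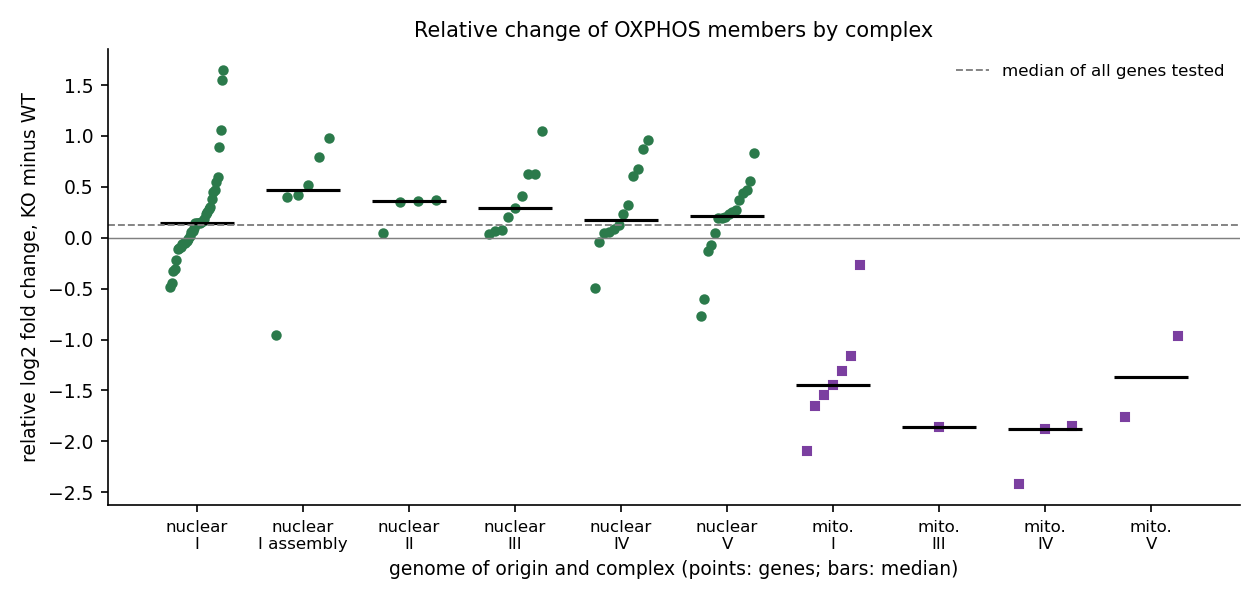
Change relative to the library median (log2, KO minus WT) of each OXPHOS member by genome and complex, with the median of each class as a bar and the median of all genes (0.12) as a dashed line. Mitochondrially encoded members lie below 0 in each of their 4 complexes, while nuclear members scatter around the dashed line.

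All 13 mitochondrial members lay lower in KO relative to the library median, and 3 of them, the complex IV genes mt-Co1, mt-Co2 and mt-Co3, were called lower. Over all genes 0.0763% were called lower on this scale. Those were 9 genes, which include these 3 and the chromosome 1 copies Gm28661 and Gm29216. The median relative change of the 13 members was −1.65 (0.12 for all genes), or −1.37 without WT4, and 12 of the 13 were lower at an unadjusted p under 0.05, as were 5.69% of all genes. WT4 stood above the other WT libraries for each of the 13, so they are not independent results. In the deposited CPM 1 member, mt-Co2, was called lower (0.203% of all genes), 0 were called higher, and the median change was −0.68. Without WT4 that median was −0.18, 0 members were called lower, and 1, mt-Nd5, was called higher. The library that held the extreme values was WT4: its mitochondrial mRNA was above that of every other library in 11 of the 13 genes.

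Complex IV has its core in 3 mitochondrial products, and those of mt-Co1 and mt-Co2 hold the heme and copper centres that take electrons to oxygen. The mt-Co2 level (chrM:7013-7696, plus strand) was 145, 73.98, 325 and 993 CPM in WT1 to WT4 and 149, 134, 56.98, 79.7 and 60.2 CPM in KO1 to KO5. KO3 and KO5 lay below all WT libraries, the other 3 KO libraries lay among them, and WT4 was the highest. Its change was −1.45 (SE 0.482, adjusted p = 0.0248) in the deposited CPM and −2.42 (SE 0.477, adjusted p = 0.0491) relative to the library median.

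The largest core subunit, mt-Co1, had 505, 343, 709 and 2148 CPM in WT1 to WT4 and 584, 369, 316, 399 and 299.7 CPM in KO1 to KO5. On the relative log2 scale its levels were 6.12, 4.93, 6.09 and 6.97 in WT1 to WT4 and 4.78, 4.39, 3.82, 4.14 and 3.59 in KO1 to KO5, so every KO value lay below every WT value by that measure, with WT2 and KO1 the nearest pair. The relative change was −1.88 (SE 0.356, adjusted p = 0.0488). For mt-Co3 (chrM:8607-9390, plus strand) the levels were 39.6, 43.5, 35.2 and 173 CPM in WT1 to WT4 and 32.8, 21.02, 30.3, 23.4 and 55.3 CPM in KO1 to KO5. Its relative values did not overlap either, and the relative change was −1.85 (SE 0.3595, adjusted p = 0.0491). Groups also did not overlap on that scale for mt-Nd2 and mt-Atp6, which makes 4 of 13 members, against 1.74% of all genes in that direction.

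The calls in complex IV rested on adjusted p-values just under the threshold and changed with single libraries. Relative calls among the 13 numbered 0 without WT1, 6 without WT2, 0 without WT3, 0 without WT4, 6 without KO1, 1 without KO2, 0 without KO3, 0 without KO4 and 1 without KO5. They numbered 0 with a pseudocount of 0.5 or 5 CPM, 0 in limma without trend, 1 (mt-Co3) in edgeR, which called 0.0339% of all genes lower, and 11 in DESeq2, which called 0.949% lower. In the deposited CPM the single call became 3 without WT2, 0 without WT3, 0 without WT4 and 0 without KO3. Of the 7 chromosome 1 copies, those of mt-Co2 and mt-Co1 were called lower on both scales. Gm28661 (mt-Co2) had 146, 85.8, 365 and 1012 CPM in WT1 to WT4 and 153, 149.6, 63.1, 89.02 and 98 CPM in KO1 to KO5, and its change was −1.31 (adjusted p = 0.0335) in the deposited CPM and −2.29 (adjusted p = 0.0491) relative to the library median. Gm29216 (mt-Co1) had 315, 152, 485 and 1730.5 CPM in WT1 to WT4 and 292, 187, 176, 208 and 124 CPM in KO1 to KO5, and its change was −1.23 (adjusted p = 0.0387) in the deposited CPM and −2.21 (adjusted p = 0.0488) relative to the library median, where mt-Co1 itself was not called in the deposited CPM (−0.91, adjusted p = 0.09298).

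**Figure D3:**
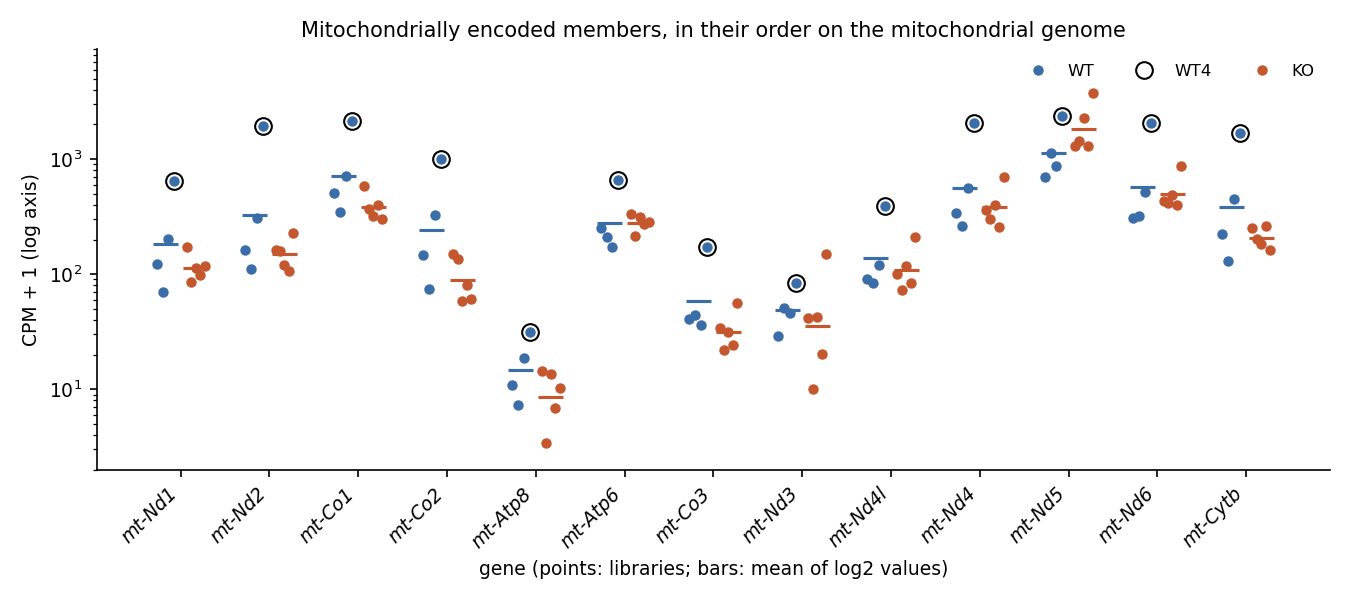
CPM + 1 (log axis) of the 13 mitochondrially encoded members in their order on the mitochondrial genome, with 1 point per library, WT4 ringed, and bars at the mean of the log2 values of each group. WT4 stands above the other WT libraries for each gene, and mt-Nd5 is the gene whose KO bar lies clearly above its WT bar.

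Complex I has 7 mitochondrial subunits, all in its membrane arm, where protons are pumped. Their relative changes were −1.65 for mt-Nd1, −2.09 for mt-Nd2, −1.45 for mt-Nd3, −1.55 for mt-Nd4, −1.31 for mt-Nd4l, −0.27 for mt-Nd5 and −1.17 for mt-Nd6, and 0 of the 7 were called on either scale (smallest relative adjusted p = 0.0929). The mt-Nd2 levels were 162, 110.4, 309 and 1956 CPM in WT1 to WT4 and 161, 158, 119, 105 and 226 CPM in KO1 to KO5. WT4 stood far above the rest, and the KO values fell within the range of the other 3 WT libraries except for KO4, just under it.

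The distal membrane subunit gene mt-Nd5 (chrM:11742-13565, plus strand) was the exception among the 13. It had 693, 1118, 871 and 2354 CPM in WT1 to WT4 and 1301, 1438, 2259, 1307 and 3776 CPM in KO1 to KO5. KO5 was the highest library, WT4 the second, and the groups overlapped. Its change was 0.71 (SE 0.471, adjusted p = 0.206) in the deposited CPM and −0.27 (SE 0.342, adjusted p = 0.804) relative to the library median, with a 95% interval from −0.98 to 0.44. Without WT4 it was called higher in the deposited CPM, with a change of 1.07 (adjusted p = 0.0316), while its relative change was −0.12 (adjusted p = 0.9202). As a percentage of the mitochondrial member CPM it made up 23.8, 39.7, 20.1 and 15.5 in WT1 to WT4 and 33.1, 42.1, 50.8, 39.5 and 54.6 in KO1 to KO5. The share ranges of the groups overlapped in WT2 alone, which lay above KO1 and KO4.

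For mt-Nd6, the only one of these genes on the strand opposite to the others, the levels were 307, 319, 517 and 2053 CPM in WT1 to WT4 and 436, 414, 487, 401 and 870.2 CPM in KO1 to KO5. The change was −1.17 (SE 0.353, adjusted p = 0.201) relative to the library median, and KO5 and WT4 were each far above the rest of their group. Without a known strand setting, its reads cannot be told apart from RNA of the opposite strand. The neighbouring pair mt-Nd4l and mt-Nd4, which share a transcript and 7 bases, had relative changes of −1.31 and −1.55. The mt-Nd3 levels were 27.9, 50.2, 45.2 and 82.7 CPM in WT1 to WT4 and 40.4, 9.08, 41.5, 19.3 and 149 CPM in KO1 to KO5, where KO5 was the highest and KO2 the lowest of all 9 libraries.

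Complex III has a single mitochondrial subunit, cytochrome b, from mt-Cytb (chrM:14145-15288, plus strand). Its levels were 222, 129, 447 and 1677 CPM in WT1 to WT4 and 249, 199.7, 183, 259 and 161 CPM in KO1 to KO5, with WT2 below all 5 KO libraries and WT4 above all others. The relative change was −1.86 (SE 0.422, adjusted p = 0.0966). Complex V takes 2 subunits of its proton channel part from mt-Atp6 and mt-Atp8, which overlap by 43 bases. The mt-Atp6 levels were 251, 208, 173 and 654 CPM in WT1 to WT4 and 334, 212, 311, 269 and 284 CPM in KO1 to KO5, with WT4 the highest and 4 of the 5 KO libraries above WT1 to WT3. Its change was 0.0066 (SE 0.407, adjusted p = 0.9899) in the deposited CPM and −0.97 (SE 0.292, adjusted p = 0.201) relative to the library median. For mt-Atp8 the relative change was −1.76 (SE 0.517, adjusted p = 0.182), at no more than 30.4 CPM in any library.

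Per kilobase of exon, all 13 mitochondrial members lay above the median nuclear member in mean CPM in both groups. In WT 11 of the 13 means were above that of every nuclear member, and in KO 4 were (mt-Nd5, mt-Nd6, mt-Nd4l and mt-Atp6). These counts depend on the length used, which was all annotated exon bases of a gene merged. For Atp5h that was 1465 bases, against 682 in its longest protein-coding transcript, while for mt-Co1 both were 1545. A transcript length would raise many nuclear values, and the counts on that length were not computed. In CPM per kilobase mt-Nd6 was at 1539 ± 1621 (SD, n = 4) in WT and 1005 ± 381 (SD, n = 5) in KO, mt-Nd5 at 690.1 ± 411 (SD, n = 4) in WT and 1105 ± 582 (SD, n = 5) in KO and mt-Co1 at 599.5 ± 536 (SD, n = 4) in WT and 255 ± 73.5 (SD, n = 5) in KO. The lowest were mt-Atp8 at 79.04 ± 52.3 (SD, n = 4) in WT and 42.6 ± 22.6 (SD, n = 5) in KO and mt-Co3 at 92.9 ± 85.3 (SD, n = 4) in WT and 41.5 ± 17.3 (SD, n = 5) in KO. Among nuclear members the highest mean in each group on this scale was that of Atp5h, at 133 ± 59.1 (SD, n = 4) in WT and 297 ± 111 (SD, n = 5) in KO. In WT, where the SD of these genes was close to or above the mean, the order of mt-Nd2, mt-Co1, mt-Nd4, mt-Nd4l, mt-Co2 and mt-Cytb, all between 541 and 611, was not resolved.

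All 84 nuclear members had a change above 0 in the deposited CPM, as did 94.6% of all genes, and 31 (36.9%) were called higher where 32% of all genes were; without the 3 annotated pseudogenes, an alternative chosen after the data were seen, 30 of 81 were. Their median change was 1.17, near the 1.10 of all genes. Relative to the library median 0 were called in either direction (0.0339% and 0.0763% of all genes), with 3 higher and 1 lower at an unadjusted p under 0.05 (5.99% and 5.69% of all genes) and a smallest adjusted p of 0.246. The relative median was 0.20, against 0.12 over all genes, and 64 of 84 were above 0, as were 57.9% of all genes. WT and KO did not overlap in CPM for 12 of 84, where 18.7% of all genes had all KO above all WT. The share called lies near that of the whole table.

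The count of 31 depended on the scaling. It was 0 after quantile normalisation, when the mitochondrial rRNAs were left out of the CPM, in edgeR and in DESeq2. Of all genes edgeR called 0.00847% higher and DESeq2 0.246%. At an unadjusted p under 0.05 edgeR had 1 nuclear member higher and 1 lower (5.21% and 5.97% of all genes), and DESeq2 gave no adjusted p for 20 members. Leaving out 1 library at a time gave 7 without WT1, 15 without WT2, 12 without WT3, 58 without WT4, 13 without KO3, 15 without KO4 and 13 without KO5. The mean relative log2 level of the 84 was 0.21, 0.23, 0.14 and 0.23 in WT1 to WT4 and 0.13, 0.21, 0.56, 0.58 and 0.77 in KO1 to KO5: KO3, KO4 and KO5 lay above every WT library, and KO1 and KO2 did not. The same mean over the 16 endothelial markers was 2.70, 3.03, 2.70 and 3.23 in WT1 to WT4 and 2.85, 2.97, 3.76, 3.53 and 3.67 in KO1 to KO5, with KO3 to KO5 again the highest. Over the 12 adipocyte markers it was 2.71, 3.09, 2.77 and 2.22 in WT1 to WT4 and 2.88, 2.32, 2.57, 2.01 and 1.97 in KO1 to KO5, with overlapping groups. Skeletal muscle markers (9 of 12 measured, with Actn3, Tnni2 and Pvalb at 0 in at least 1 library) were all 9 called higher in the deposited CPM (32% of all genes) and 0 relative to the library median. Their relative median was 2.29, and all 9 relative changes were above 0 (57.9% of all genes). Of these, 7 were higher at an unadjusted p under 0.05 in limma (5.99% of all genes). The muscle markers summed to between 50.9 and 133 CPM in WT and to 625, 368, 451, 253 and 7615 CPM in KO1 to KO5. The part of these cell types in the OXPHOS values was not tested, and in bulk captures more cells of a type and more RNA per cell cannot be told apart.

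Complex I oxidises NADH and is the largest of the 5 complexes. Of its 37 nuclear members, 11 were called higher in the deposited CPM (29.7%, against 32% of all genes) and 0 relative to the library median, with a relative median of 0.14. The members with the smallest p were Ndufa2, Ndufc1, Ndufs7 and Ndufc2. Ndufa2, a small accessory subunit of the matrix arm, had 0.45, 21.4, 2.63 and 24.7 CPM in WT1 to WT4 and 34.6, 34.4, 41.8, 52.7 and 67.9 CPM in KO1 to KO5. Every KO value was above every WT value, WT1 and WT3 being near 0. Its change was 2.62 (SE 0.594, adjusted p = 0.00538) in the deposited CPM and 1.65 (SE 0.548, adjusted p = 0.246) relative to the library median, the highest relative change of the complex.

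Ndufs7, which carries the last iron-sulphur cluster before ubiquinone, had 9.45, 3.16, 7.35 and 7.6 CPM in WT1 to WT4 and 21.9, 22.5, 20.6, 29.3 and 41.9 CPM in KO1 to KO5, with no overlap between the groups. The change was 1.87 (SE 0.526, adjusted p = 0.0125), or 0.89 (SE 0.453, adjusted p = 0.465) relative to the library median. The accessory subunit gene Ndufc1 had 0, 2.37, 0.53 and 4.75 CPM in WT1 to WT4 and 10.02, 8.6, 6.49, 24.01 and 20.8 CPM in KO1 to KO5. It too did not overlap, at few reads in WT, and its change was 2.52 (SE 0.659, adjusted p = 0.00909). For Ndufc2 the change was 2.04 (SE 0.612, adjusted p = 0.0164); the WT4 level of 26.6 CPM lay among the KO values.

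The 2 nuclear complex I members with the highest mean CPM had relative changes below 0. Ndufv3, a regulatory subunit beside the NADH-binding site, had 101, 140.1, 85.6 and 300.3 CPM in WT1 to WT4 and 184, 199, 236, 265 and 121 CPM in KO1 to KO5, and Ndufv1, which holds the NADH-binding flavin, had 70.7, 84.7, 60.4 and 176 CPM in WT1 to WT4 and 131, 106, 156, 192 and 143 CPM in KO1 to KO5. WT4 was the highest library for Ndufv3, and the groups overlapped for both. Their relative changes were −0.49 (SE 0.309, adjusted p = 0.572) and −0.31 (SE 0.273, adjusted p = 0.708), the first being the lowest of the nuclear members of complex I. The 6 assembly factors, which build complex I without staying in it, were all under 24 CPM in every library, and Ndufaf1 and Ndufaf4 were called higher in the deposited CPM.

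**Figure D4:**
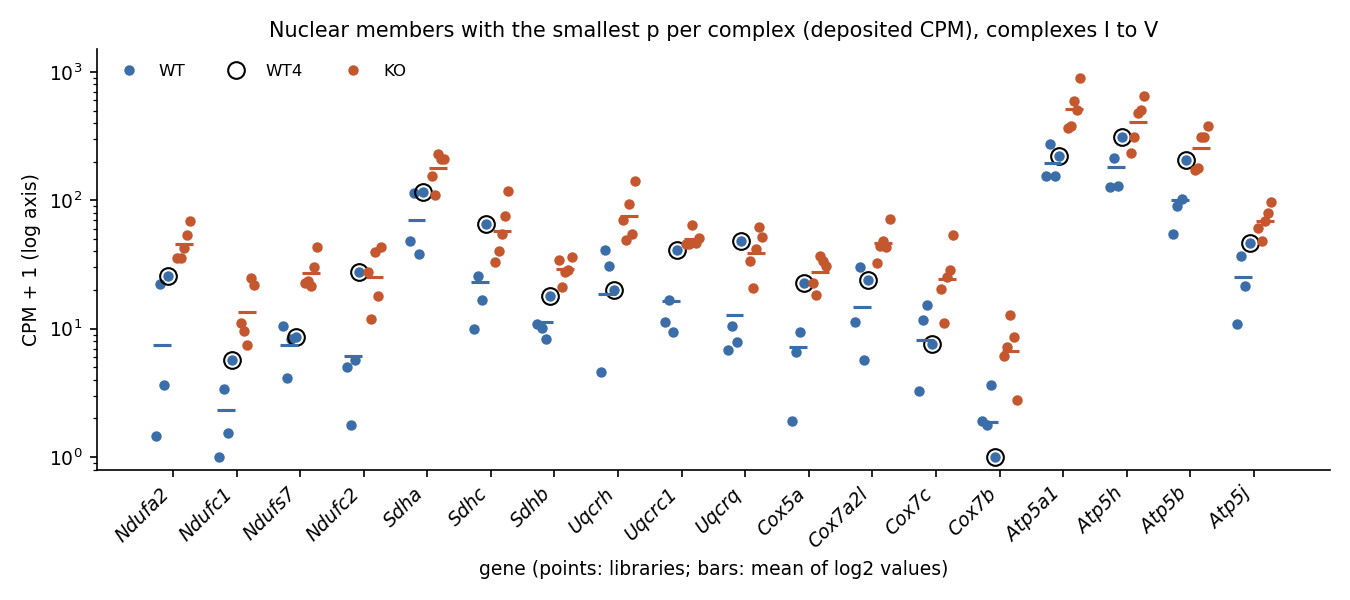
CPM + 1 (log axis) of the nuclear members called higher in the deposited CPM with the smallest p, up to 4 for each of complexes I to V from left to right, with 1 point per library, WT4 ringed, and bars at the mean of the log2 values. KO bars lie above WT bars for all of them, and WT4 lies among the KO points for Ndufc2, Sdha, Sdhc, Uqcrq, Cox5a, Atp5h and Atp5b.

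Complex II, succinate dehydrogenase, is wholly nuclear and also a citric acid cycle enzyme. Of its 4 members, 3 were called higher in the deposited CPM (32% of all genes) and 0 relative to the library median, and all 4 relative changes were above 0 (57.9% of all genes), with a median of 0.36. Sdha, the flavin-bearing catalytic subunit, had 47.2, 112, 37.3 and 114 CPM in WT1 to WT4 and 155, 109, 229, 209.7 and 209.9 CPM in KO1 to KO5. KO2 lay just below WT2 and WT4, and the other 4 KO libraries were above all WT libraries. Its change was 1.34 (SE 0.415, adjusted p = 0.0185) in the deposited CPM and 0.36 (SE 0.302, adjusted p = 0.683) relative to the library median. The iron-sulphur subunit gene Sdhb (chr4:140961203-140979193, plus strand) had 9.9, 9.1, 7.35 and 17.1 CPM in WT1 to WT4 and 33.1, 20.1, 26.7, 27.5 and 34.98 CPM in KO1 to KO5, with no overlap, and a change of 1.35 (SE 0.496, adjusted p = 0.0364) in the deposited CPM. The membrane anchors differed in level: Sdhc had 9, 24.9, 15.8 and 64.6 CPM in WT1 to WT4 and 32.2, 39.2, 54.1, 73.8 and 118 CPM in KO1 to KO5 and a deposited change of 1.33 (SE 0.489, adjusted p = 0.0368), while Sdhd stayed at or under 22.1 CPM with a deposited change of 1.02 (SE 0.634, adjusted p = 0.179).

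Complex III passes electrons from ubiquinol to cytochrome c. Of 9 nuclear members 3 were called higher in the deposited CPM, near the 32% of all genes, and 0 relative to the library median, and all 9 relative changes were above 0 (57.9% of all genes), with a median of 0.29. Uqcrh, the hinge subunit that supports cytochrome c docking (chr4:116066965-116075071, minus strand), had 3.6, 40.4, 29.9 and 19.01 CPM in WT1 to WT4 and 68.9, 47.8, 92.3, 53.9 and 140.2 CPM in KO1 to KO5. The groups did not overlap, and WT1 was the lowest. Its change was 2.03 (SE 0.499, adjusted p = 0.00728) in the deposited CPM and 1.05 (SE 0.445, adjusted p = 0.361) relative to the library median. Uqcrc1, a core scaffold subunit, had 10.3, 15.8, 8.4 and 39.9 CPM in WT1 to WT4 and 44.6, 44.4, 63.1, 45.1 and 49.6 CPM in KO1 to KO5: the KO values were tight apart from KO3, and WT4 lay just under them. The change was 1.601 (SE 0.472, adjusted p = 0.01502). Uqcrq, a small accessory subunit, had a change of 1.61 (SE 0.527, adjusted p = 0.0232), with WT4 at 47.5 CPM against 5.85 to 9.49 CPM in the other WT libraries. Uqcr11, one of the more abundant members in CPM, had the smallest relative change of the nuclear members of the complex, 0.033 (SE 0.306, adjusted p = 0.9796).

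Complex IV reduces oxygen to water, and its nuclear subunits surround the mitochondrial core. Of 12 nuclear members 7 were called higher in the deposited CPM (32% of all genes) and 0 relative to the library median, where their median change was 0.18; the 3 mitochondrial subunits of the same complex had a relative median of −1.88. Among the 7 calls was Cox6c2, an annotated processed pseudogene, and without it 6 of 11 were called. Cox5a (chr9:57521274-57532426, plus strand), a matrix-side subunit, had 0.9, 5.54, 8.4 and 21.9 CPM in WT1 to WT4 and 21.9, 17.2, 35.7, 32.8 and 29.8 CPM in KO1 to KO5. WT4 equalled KO1 and exceeded KO2, and the other WT libraries were lower. Its change was 1.94 (SE 0.576, adjusted p = 0.0154) in the deposited CPM and 0.96 (SE 0.473, adjusted p = 0.444) relative to the library median. Cox7a2l, known as a factor of respiratory supercomplexes rather than a fixed subunit, had 10.3, 29.3, 4.73 and 22.8 CPM in WT1 to WT4 and 31.3, 43, 47.6, 42.2 and 69.96 CPM in KO1 to KO5 with no overlap and a deposited change of 1.65 (SE 0.493, adjusted p = 0.0158). Cox7c and Cox7b, small transmembrane subunits, had deposited changes of 1.59 (SE 0.562, adjusted p = 0.0316) and 1.84 (SE 0.687, adjusted p = 0.0383), the second at 11.9 CPM or less in every library.

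The most abundant nuclear members of complex IV in CPM were Cox5b and Cox4i1. Cox5b had 87.8, 159.8, 67.2 and 260.4 CPM in WT1 to WT4 and 168, 228, 330.4, 349.6 and 279 CPM in KO1 to KO5, and its change was 1.06 (SE 0.413, adjusted p = 0.0452) in the deposited CPM and 0.083 (SE 0.302, adjusted p = 0.938) relative to the library median. Cox4i1, the ubiquitous form of subunit 4, had 45, 89.01, 36.8 and 162 CPM in WT1 to WT4 and 98.05, 117, 201, 172 and 199 CPM in KO1 to KO5, with overlapping groups and a relative change of 0.12 (SE 0.313, adjusted p = 0.913). Some complex IV subunits come in tissue isoforms. The ubiquitous or liver-type partners Cox4i1, Cox6a1, Cox6b1, Cox7a2 and Cox8a were among the listed genes. Their muscle, lung and testis partners (Cox4i2, Cox6a2, Cox6b2, Cox7a1 and Cox8b) were not. Cox6a1 had 13.5, 13.4, 16.3 and 30.4 CPM in WT1 to WT4 and 15.5, 22.5, 31.02, 31.04 and 27.3 CPM in KO1 to KO5 and the lowest relative change of the nuclear members of complex IV, −0.49 (SE 0.365, adjusted p = 0.632). Cox6b1, Cox7a2 and Cox8a had relative changes of 0.048, 0.32 and −0.038, each smaller than its SE of 0.452, 0.6705 and 0.386, and none was called on either scale.

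Complex V joins a catalytic head to a proton-driven rotor. Of 16 nuclear members 5 were called higher in the deposited CPM, near the 32% of all genes, and 0 relative to the library median (median 0.22). The catalytic head genes Atp5a1 and Atp5b, for the alpha and beta subunits, were both called. Atp5a1 had 153, 272, 154 and 219.5 CPM in WT1 to WT4 and 364, 378, 594, 500.1 and 901 CPM in KO1 to KO5, all KO above all WT, and changes of 1.41 (SE 0.3998, adjusted p = 0.0128) in the deposited CPM and 0.43 (SE 0.291, adjusted p = 0.588) relative to the library median. Atp5b had 54, 88.6, 101 and 206 CPM in WT1 to WT4 and 172, 176, 307, 312 and 379.7 CPM in KO1 to KO5. WT4 overlapped KO1 and KO2, and its changes were 1.35 (SE 0.412, adjusted p = 0.0178) and 0.37 (SE 0.278, adjusted p = 0.636). The peripheral stalk genes Atp5h and Atp5j followed: Atp5h had 127, 212, 129 and 309.8 CPM in WT1 to WT4 and 234, 311, 478, 504 and 645 CPM in KO1 to KO5 and a deposited change of 1.17 (SE 0.408, adjusted p = 0.0299), and Atp5j had 9.9, 36, 20.5 and 45.6 CPM in WT1 to WT4 and 60.1, 46.8, 67.4, 79.1 and 95.4 CPM in KO1 to KO5, without overlap, and a deposited change of 1.45 (SE 0.452, adjusted p = 0.0194).

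The lowest relative change among nuclear complex V members was that of Atp5k, the e subunit, which helps ATP synthase form dimers. It had 17.1, 22.6, 45.7 and 50.4 CPM in WT1 to WT4 and 23.98, 24.4, 44.7, 66.8 and 33.4 CPM in KO1 to KO5, with the groups interleaved, and changes of 0.21 (SE 0.466, adjusted p = 0.702) in the deposited CPM and −0.76 (SE 0.362, adjusted p = 0.419) relative to the library median. Atp5mpl, a small membrane subunit, had the highest relative change of the nuclear complex V members, 0.83 (SE 0.815, adjusted p = 0.7396), at 9.45, 0.4, 1.05 and 0 CPM in WT1 to WT4 and 7.89, 0.96, 6.85, 8.78 and 26.8 CPM in KO1 to KO5; WT1 lay within the KO values, and KO2 and the other WT libraries were near 0. Shared sequence limits some of these values: 28 of 81 nuclear members that could be searched match another annotated transcript over at least 100 bases at 98% identity. For 12 of them the match was to genes whose exons overlap their own, such as Tssk6 for Ndufa13. The other 16 match genes elsewhere, and for 4 of these (Ndufs3, Uqcrb, Atp5h and Atp5l) the matches cover at least 50% of the transcript.

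Other genes of the pathway were taken from lists beside the members. Of 32 measured assembly factors (49 listed; the 6 Ndufaf members are among them), 6 were called higher in the deposited CPM, where 32% of all genes were, and 0 relative to the library median. Relative changes of the 32 were above 0 for 19 (57.9% of all genes) and below 0 for 13. At an unadjusted p under 0.05 in limma, 0 were higher and 1 lower (5.99% and 5.69% of all genes). Cox19, a copper-handling factor of complex IV assembly, had 0.9, 5.93, 5.78 and 0.95 CPM in WT1 to WT4 and 25.2, 8.12, 6.85, 17.6 and 15.9 CPM in KO1 to KO5 and a deposited change of 1.97 (SE 0.632, adjusted p = 0.0211). Cox17, the copper chaperone of the same route, was at 0 in 3 WT libraries and had a deposited change of 2.19 (SE 0.752, adjusted p = 0.0277). For the mobile electron carriers, of 11 measured genes of cytochrome c and coenzyme Q synthesis (14 listed) 3 were called higher in the deposited CPM (32% of all genes) and 0 relative to the median. Cycs, the somatic cytochrome c, had 19.8, 29.7, 19.96 and 37.1 CPM in WT1 to WT4 and 36.7, 58.8, 86.9, 82.6 and 151 CPM in KO1 to KO5, a deposited change of 1.51 (SE 0.444, adjusted p = 0.0149) and a relative change of 0.53 (SE 0.344, adjusted p = 0.5796). Coq10b, a coenzyme Q binding protein, had 1.35, 1.98, 4.73 and 1.9 CPM in WT1 to WT4 and 16.1, 13.4, 22.7, 12.9 and 37.5 CPM in KO1 to KO5, with no overlap and a relative change of 1.62 (SE 0.514, adjusted p = 0.229).

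Of 20 measured genes that maintain mitochondrial DNA and RNA (33 listed), 8 were called higher in the deposited CPM (32% of all genes) and 0 relative to the library median, with a relative median of 0.29. Grsf1, a protein of the mitochondrial RNA granule, had 16.6, 21.4, 27.3 and 5.7 CPM in WT1 to WT4 and 47.4, 34.9, 79.3, 55.6 and 132 CPM in KO1 to KO5, without overlap, and changes of 1.95 (SE 0.4803, adjusted p = 0.00733) and 0.97 (SE 0.481, adjusted p = 0.4504). Pnpt1, a subunit of the mitochondrial RNA-degrading enzyme, had 0.45, 0.79, 0 and 0 CPM in WT1 to WT4 and 15.5, 8.12, 7.93, 0 and 10.6 CPM in KO1 to KO5, at 0 in WT3, WT4 and KO4, and a deposited change of 2.44 (SE 0.741, adjusted p = 0.0172). Of 13 measured regulators of nuclear OXPHOS genes (14 listed), 2 were called higher in the deposited CPM (32% of all genes), with a relative median of 0.15. Tfam, which packages and transcribes mitochondrial DNA, had 4.95, 15.4, 4.73 and 1.9 CPM in WT1 to WT4 and 23.7, 7.17, 25.6, 12.3 and 23.7 CPM in KO1 to KO5, a deposited change of 1.48 (SE 0.592, adjusted p = 0.0493) and a relative change of 0.51 (SE 0.574, adjusted p = 0.776). Nfe2l2, an activator of antioxidant genes, had a deposited change of 1.14 (SE 0.409, adjusted p = 0.0327). Ppargc1a, a coactivator of mitochondrial genes and a listed brown adipocyte marker, ran from 1.9 to 41.1 CPM in WT and from 2.32 to 119 CPM in KO and was not called. Of 7 brown and beige adipocyte markers 3 were measured, and they summed to 5.7 to 66.5 CPM in WT and 10.6 to 170 CPM in KO. Of the 3, 0 were called on either scale (32% of all genes higher in the deposited CPM). Their relative changes were all below 0 (57.9% of all genes above 0), with a median of −1.21.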

How the data were processed

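RNA from the ribosome captures of 4 WT and 5 KO libraries was analysed. The authors deposited CPM for 11802 genes, per the labels. Builds GRCm38 and mm10 and the tools R 4.0.2, edgeR 3.32.0, HISAT2 2.1.0, Trimmomatic 0.39 and FastQC 0.11.9 appear, without roles, in the submitters' processing notes. The sources used here do not give the counter, strand setting or annotation. CPM were multiples of a single step in each library, so whole reads were recovered (at least 99.97% of values whole within 0.1 read), between 1034753 and 3829356 per library. GENCODE M21 matched 11797 genes by identifier.

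Log2(CPM + 1) was tested with limma 3.58.1 (R 4.3.3, mean-variance trend, Benjamini-Hochberg over all genes, threshold 0.05), as deposited and after subtracting each library's median log2 value. A mean CPM filter of 1 removed 0 genes. On the recovered reads edgeR 4.0.16 called 1 gene higher and 4 lower, and DESeq2 1.42.0 called 29 higher and 112 lower. Copies were searched with blastn 2.17.0 among GENCODE transcripts. Tests were run on simulated counts in which all libraries shared a single mean profile apart from the genes set to change. Such counts hold no shift in mitochondrial rRNA and no outlying library, so the check does not cover these features of the data. Scores over members were not tested. Alternatives were other pseudocounts, a mean CPM filter of 5 or none, quantile normalisation, CPM without mitochondrial rRNAs, limma without trend, array weights, edgeR, DESeq2, the replicate number as a block, and left-out libraries. Members and lists were chosen with earlier results of these data known. Named genes are all mitochondrial members and, per complex, the 2 nuclear members of highest mean CPM, up to 4 called members of smallest p per scale and those of largest and smallest relative change, the isoform partners, Mfn2, and up to 2 genes per list; Ndufaf1, Ndufaf4, the annotated pseudogenes and the copies were named after their values were seen.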

Additional observations from a re-analysis of the deposited data

Results flagged for a closer look

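Of 98 groups of 4 or 5 values examined (named members and library sums in WT and in KO), 16 had 1 library separated from the rest of its group by more than a 95% gap test allows. Chance alone gives about 1 in 20 for independent, normally spread values. These groups share the same libraries, and the sums share genes with the members, so the flags are not independent. WT4 accounted for 11 of the 16. Among mitochondrial members its CPM were 1956 for mt-Nd2, 2046 for mt-Nd4, 2053 for mt-Nd6, 392 for mt-Nd4l, 173 for mt-Co3 and 654 for mt-Atp6, each above the other 3 WT libraries. Their sum was 15204 CPM in WT4 against 2812 to 4323 CPM in WT1 to WT3, and 112 CPM per 1000 CPM of mitochondrial rRNA against 4.54 to 9.18. Nuclear members that stood out in WT4 were Ndufc2 at 26.6 CPM, Uqcrq at 47.5 CPM and Cox6a1 at 30.4 CPM. WT4 was the shallowest library, with 1034753 reads.

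Elsewhere, KO5 was high for mt-Nd3 at 149 CPM (other KO libraries 9.08 to 41.5 CPM), for mt-Nd6 at 870.2 CPM, and for mitochondrial member CPM per 1000 CPM of mitochondrial rRNA at 55.03. KO3 was high for Uqcrc1 at 63.1 CPM, and WT1 for Atp5mpl at 9.45 CPM, where the other WT libraries had at most 1.05 CPM. The causes were not tested.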

How the results depend on the processing

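The difference between groups in nuclear minus mitochondrial mean log2 level kept its direction and moved by less than the spread between libraries under every alternative run, and 0 nuclear members were called higher relative to the library median under each. The 31 nuclear members called higher in the deposited CPM became 0 after quantile normalisation, without mitochondrial rRNAs, in edgeR and in DESeq2, 20 in limma without trend, 54 with array weights, 30 without the annotated pseudogenes, 48 without WT4 and KO5, and 7 to 58 with 1 library left out. The 1 mitochondrial member called lower in the deposited CPM became 0 without mitochondrial rRNAs, in limma without trend and without WT4 and KO5, 11 in DESeq2, and 0 to 3 with 1 library left out. The 3 called lower relative to the library median became 0 with a pseudocount of 0.5 or 5, with a mean CPM of at least 5, in limma without trend and without WT4 and KO5, 1 in edgeR, 11 in DESeq2, and 0 to 6 with 1 library left out. The causes were not tested.

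Replicate numbers did not pair the libraries: the correlations of same-numbered deviations were 0.029, −0.022, −0.040 and 0.039. With the replicate block, in which KO5 has no partner and adds nothing, 14 nuclear members were called higher in the deposited CPM, and 2 and 9 mitochondrial members were called lower in the deposited and relative values.

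Among changes of single genes, 1454 values under alternatives kept direction and call, 192 lost and 51 gained a call, and 97 changed sign (log2, KO minus WT). With quantile normalisation they were mt-Atp6 −0.73, Ndufv3 −0.40, Ndufv1 −0.24, Sdhd −0.10, Cox6a1 −0.49, Atp5k −0.76, Cox7a2 −0.18, Cox8a −0.010 (deposited) and mt-Nd5 0.20, Sdhd −0.097, Cox7a2 −0.17 (relative). With CPM without the mitochondrial rRNAs they were mt-Atp6 −0.60, Ndufv3 −0.12, Cox6a1 −0.095, Atp5k −0.38 (deposited) and Uqcr11 −0.0018 (relative). With array weights they were mt-Nd6 0.13 (deposited) and Sdhd −0.054, Cox8a 0.12 (relative). With a pseudocount of 5 they were Sdhd −0.028, Cox7a2 −0.16, Cox8a 0.043 (relative). With the replicate block they were mt-Atp6 −0.00017 (deposited) and Sdhd −0.14, Uqcr11 −0.00014, Cox6b1 −0.11, Cox8a 0.031 (relative). With WT4 and KO5 left out they were mt-Nd6 0.23 (deposited) and Sdhd −0.70, Atp5mpl −0.18, Cox6b1 −0.12, Cox7a2 −0.48, Cox8a 0.15 (relative). In edgeR, which has a scaling of its own, they were mt-Nd5 −0.31, mt-Atp6 −1.16, Ndufv3 −0.57, Ndufv1 −0.43, Sdhd −0.088, Uqcr11 −0.039, Cox5b −0.046, Cox4i1 −0.019, Cox6a1 −0.57, Atp5k −0.87, Cox6b1 −0.11, Cox8a −0.13, and in DESeq2 mt-Nd5 −0.31, mt-Atp6 −1.16, Ndufv3 −0.57, Ndufv1 −0.43, Sdhd −0.082, Uqcr11 −0.034, Cox5b −0.042, Cox4i1 −0.015, Cox6a1 −0.56, Atp5k −0.87, Cox6b1 −0.10, Cox8a −0.12; Sdhd, Uqcr11, Cox5b, Cox4i1 and Cox6b1 turned against both scales there and the others against the deposited scale. Leaving out 1 library at a time turned the sign of these changes, whose ranges were mt-Nd4 −0.94 to 0.049 (deposited), mt-Nd6 −0.48 to 0.43 (deposited), mt-Nd4l −0.57 to 0.18 (deposited), mt-Atp6 −0.22 to 0.42 (deposited), Sdhd −0.51 to 0.48 (relative), Uqcr11 −0.10 to 0.14 (relative), Cox5b −0.19 to 0.24 (relative), Cox4i1 −0.15 to 0.31 (relative), Atp5k −0.060 to 0.44 (deposited), Cox6b1 −0.29 to 0.34 (relative), Cox7a2 −0.31 to 0.78 (relative), Cox8a −0.27 to 0.19 (relative). Depth limits low members: WT4 had 6 nuclear members at 0 reads.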

Other observations

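Mitochondrial mRNA and mitochondrial rRNA did not move together between libraries. Member CPM per 1000 CPM of the 2 mitochondrial rRNAs were 4.54, 5.98, 9.18 and 112 in WT1 to WT4 and 22.2, 13.8, 23.1, 23.1 and 55.03 in KO1 to KO5. WT1 to WT3 lay below all KO libraries and WT4 above all of them. The ratio of mt-Co2 to mt-Nd5 CPM was 0.2097, 0.0662, 0.373 and 0.422 in WT1 to WT4 and 0.114, 0.0934, 0.0252, 0.06096 and 0.0159 in KO1 to KO5, with WT2 the only WT library inside the KO range.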
